A study of Aspergillus nidulans with 8 samples.

Results

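The 6 hydrophobin genes of the filamentous fungus Aspergillus nidulans, rodA (AN8803), dewA (AN8006), dewB (AN1837), dewC (AN6401), dewD (AN0940) and dewE (AN7539), were followed in colonies grown on agar. They were taken by gene identifier from the 11127 genes on the array, and all 6 were among the 11109 genes tested. Each was measured by 3 probes, and all 18 probes were well above background on all 8 arrays. The groups were 3 solid media, named CYAs, YES and CYA here, whose abbreviations the labels do not spell out. For YES the sample titles write YESs and the other labels YES, so which spelling of the medium is right is not settled by the labels, and YES is used throughout. CYAs and CYA colonies were collected on days 4, 8 and 10 (3 arrays each) and YES colonies on days 4 and 10 (2 arrays). All colonies were stab-inoculated, kept in darkness and scraped whole from the agar, and the strain and any pooling of plates are not stated in the labels. There was 1 array for each medium and day, so the spread within a medium is a spread over days.

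Hydrophobins are small secreted cysteine-rich proteins that assemble at the boundary of water and air. In Aspergillus nidulans, RodA builds the rodlet layer that makes conidia, the asexual spores, water-repellent. DewA is another hydrophobin of the conidium wall, and DewB to DewE were named as further members of the family found at the spore surface. Conidia form on conidiophores under the regulators BrlA, AbaA and WetA, acting in that order. The reference annotation (assembly ASM1142v1) gives symbols for rodA and dewA only and places the 6 genes on 6 different chromosomes.

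The samples are labelled as mycelium, but the RNA came from whole colonies. All 5 genes of conidium and conidiophore products examined were well above background on all 8 arrays, as were 10791 of the 11127 genes on the array. In bulk RNA of whole colonies, fewer spore-bearing cells and less RNA per cell cannot be told apart. A level is the log2 signal relative to the 75th percentile of the array, so a level of 0 equals that percentile. It depends on the probes of the gene, and levels are therefore compared between arrays and not between genes. The 75th percentile of the signal lay between 1481 and 4976, no spot of the 18 probes was saturated, and the number of arrays limits the precision. The CYAs day 8 array was checked against CYA day 8, and no other array was put through this check. It carried about the same fraction of the CYA day 8 signal (median 0.217, quartiles 0.202 and 0.231) for 180 genes. These genes were 16-fold or more higher on CYA day 8 than on both other CYAs arrays.

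Transcripts of rodA, the rodlet protein gene, had levels of 4.30 (day 4), 3.43 (day 8) and 4.16 (day 10) on CYAs. On YES they had 4.51 on day 4 and -3.41 on day 10. CYA gave 2.00, -3.17 and -4.25 on days 4, 8 and 10. The arrays thus formed a high set (CYAs at every age and YES day 4), CYA day 4 below it, and a low set of YES day 10 and the older CYA colonies. The gap between CYA day 4 and CYA day 8 was 5.17 (SD 0.16 over 3 probes) and exceeded every other step in the order. CYAs day 4 and CYAs day 10 differed by 0.147, within the SD of 0.149 between probes. Here and below, an SD between probes holds no spread between cultures or arrays, because the probes share the same arrays. Over the days, the mean on CYAs was 3.96 ± 0.47 (SD, n = 3) and that on CYA -1.81 ± 3.34 (SD, n = 3). From highest to lowest array, rodA spanned 8.76 on the log2 scale (432-fold), a wider range than 99.5% of tested genes had. The median range of all tested genes was 1.68.

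The dewA transcripts, which encode the conidium wall hydrophobin DewA, stood at 3.63 (day 4), 3.07 (day 8) and 3.72 (day 10) on CYAs. YES gave 3.69 on day 4 and -3.30 on day 10, and CYA gave 1.47, -2.92 and -6.24 on days 4, 8 and 10. The same high and low arrays were seen as for rodA. CYA day 10 differed from CYA day 8 by -3.32 for dewA and by -1.08 for rodA. Of the 6 genes, dewA and dewD were at least 4-fold lower on CYA day 10 than on CYA day 8, as were 6.15% of tested genes. In the deposited log2 values the fall of dewD between these days was under 4-fold, from 8.695 to 6.926. The range of dewA was 9.95 on the log2 scale (990-fold), wider than that of 99.8% of tested genes. Its low end, CYA day 10, rests on weak probe signals of 26.8, 9.69 and 56.3. In the deposited table of log2 values dewA spanned less, from 6.41 on CYA day 10 to 14.83 on CYAs day 10.

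For dewB, a further hydrophobin gene of the family, CYAs gave levels of 1.69, 0.66 and 1.55 on days 4, 8 and 10. YES gave 1.82 on day 4 and -5.22 on day 10, and CYA gave -1.21, -3.96 and -4.60. The high set was again CYAs at all ages and YES day 4, and here the lowest array was YES day 10. YES day 4 and CYAs day 4 differed by 0.12, within the SD of 0.14 between probes. The range was 7.04 on the log2 scale.

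**Figure D1:**
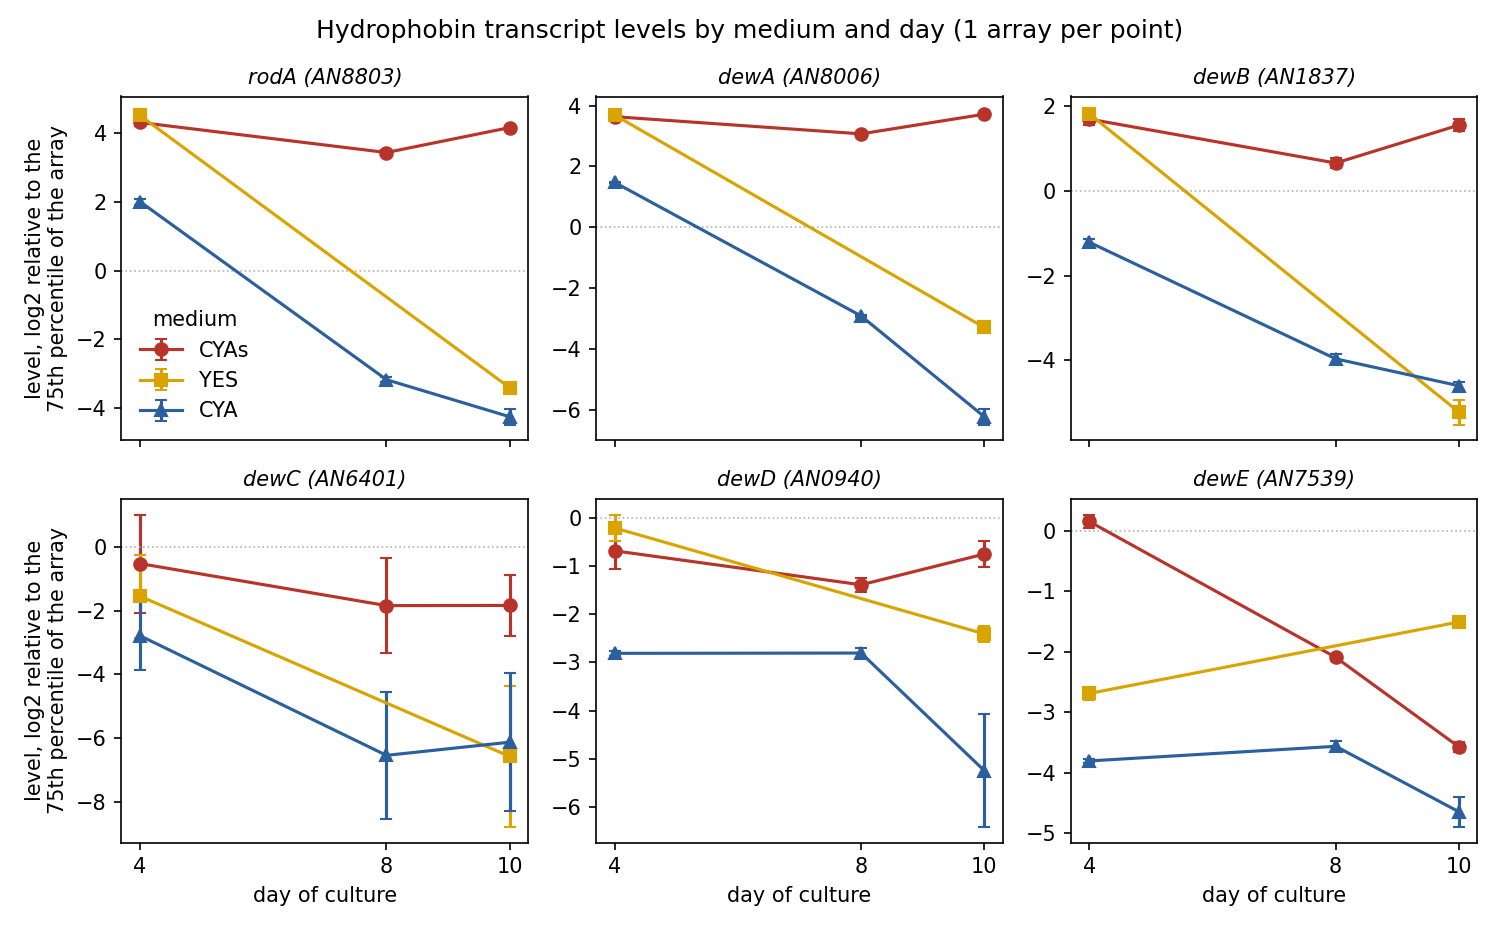
Level of each hydrophobin transcript (y axis, log2 relative to the 75th percentile of the array) against day of culture (x axis) on CYAs, YES and CYA. Each point is 1 array and the mean of 3 probes, and bars are the SD between the probes after the mean of each probe was removed. CYAs stays near 4 for rodA, while YES and CYA end at -3.41 and -4.25. For dewE the YES line goes up from day 4 to day 10 and the CYAs line goes down.

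The dewC transcripts averaged -0.53, -1.85 and -1.84 on CYAs days 4, 8 and 10, -1.55 and -6.58 on YES days 4 and 10, and -2.79, -6.55 and -6.13 on CYA days 4, 8 and 10. The arrays split into the same high and low sets, but the 3 probes of dewC differed in the size of the split. The probe at bases 241 to 300 of the transcript gave a signal of 62.0 to 12580 over the arrays, and the probe at bases 312 to 371 gave 14.4 to 6771. The probe nearest the 3′ end, starting at base 392 and ending at base 451, gave only 20.2 to 77.7. From YES day 4 to YES day 10 the differences by probe were -6.37, -7.68 and -1.05 in that order, and the dim probe therefore draws the average towards 0. Correlations between the probes of dewC over the arrays went down to 0.759, against at least 0.961 between the probes of every other member.

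For dewD the CYAs levels were -0.68, -1.39 and -0.75 on days 4, 8 and 10. YES gave -0.21 and -2.41 on days 4 and 10, and CYA gave -2.81, -2.81 and -5.25 on days 4, 8 and 10. Days 4 and 8 on CYA differed by 0.01, within the SD of 0.14 between probes, whereas rodA, dewA, dewB and dewC were all at least 4-fold lower on CYA day 8 than on CYA day 4 (7.35% of tested genes). CYA day 10 stood apart as the lowest array of dewD, with a difference from day 8 of -1.32, -2.55 and -3.47 by probe. The signals of these probes on CYA day 10 were weak, at 83.5, 42.4 and 32.1 in that order.

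The dewE transcripts followed another order. CYAs gave 0.15, -2.09 and -3.57 on days 4, 8 and 10, YES gave -2.69 and -1.51 on days 4 and 10, and CYA gave -3.80, -3.56 and -4.65. CYAs day 4 was the highest array and YES day 10 the next, whereas YES day 10 was among the 3 lowest arrays of rodA, dewA, dewB and dewC. CYAs day 10 lay just under CYA day 8, by 0.01, so the CYAs and CYA arrays of dewE overlapped. As a description over 8 arrays that share media and days, the Pearson correlation of dewE with the other members was 0.347 to 0.594. The pairwise correlations among rodA, dewA, dewB and dewC were 0.944 to 0.985, and those of dewD with these 4 genes were 0.767 to 0.898.

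At matched age, every hydrophobin gene had its higher level on CYAs rather than CYA. All 6 were higher on each of the 3 days, as were 16.5% of tested genes, and by at least 2-fold each time, as were 1.99%. The difference was at least 4-fold for all 6 genes on day 4 (0.954% of tested genes), for 4 on day 8 (5.32%) and for 5 on day 10 (4.24%). The lowest CYAs array was above the highest CYA array for 5 of the 6 genes, all but dewE, against 5.27% of tested genes. On days 4 and 8 the CYAs and CYA arrays lay on different slides. For rodA the difference ran from 2.30 on day 4 through 6.60 on day 8 to 8.41 on day 10, the last a 339-fold difference within slide 2. For dewA it was 2.16, 5.99 and 9.95, and for dewB 2.90, 4.62 and 6.15. These 3 genes thus had the smallest difference on day 4 and the largest on day 10. The difference for dewE was 3.96, 1.47 and 1.07 on the same days, with the largest value on day 4. For dewD it was 2.13, 1.42 and 4.50, and for dewC 2.26, 4.70 and 4.29, or 5.49 on day 10 by its brightest probe.

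The fit used limma over all tested genes with medium and day as additive factors. With 1 array per medium and day, its residual holds any change of the medium difference between days. Spread between cultures or arrays cannot be separated from that change. The SE, interval and p of this fit are therefore no measure of replicate spread alone. The fit put rodA higher on CYAs than on CYA by 5.77 (SE 1.50, 95% interval 1.98 to 9.56, adjusted p = 0.397). The other fitted differences were 6.03 for dewA (SE 1.55), 4.56 for dewB (SE 1.25), 3.75 for dewC (SE 0.76), 2.68 for dewD (SE 0.64) and 2.17 for dewE (SE 0.93), with limma adjusted p from 0.368 to 0.613. None of the 6 passed at an adjusted p under 0.05, as none of the tested genes did (0%). At an unadjusted p under 0.05, 5 of the 6 were higher, all but dewE, and 5.24% of tested genes were higher. The median difference of the 6 genes was 4.16 against -0.01 over all tested genes. The arrays lay on 2 slides, with both YES arrays and CYA days 4 and 8 on slide 1. With slide as a block the differences were 6.62 for rodA (SE 2.69), 8.32 for dewA (SE 2.44) and 4.42 for dewB (SE 2.29). They were 3.46 for dewC (SE 1.37), 3.88 for dewD (SE 0.90) and 2.22 for dewE (SE 1.70). Without CYAs day 8, the array checked above, the differences were 5.35 for rodA, 6.06 for dewA, 4.53 for dewB, 3.28 for dewC, 3.31 for dewD and 2.51 for dewE. YES has no day 8 array, so this leaves out the day 8 comparison as a whole. Leaving out CYA day 8 gave the same values. Without CYAs day 10 the difference of rodA was 4.08 and that of dewA 4.04, and without CYAs day 4 that of dewE was 0.99.

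**Figure D2:**
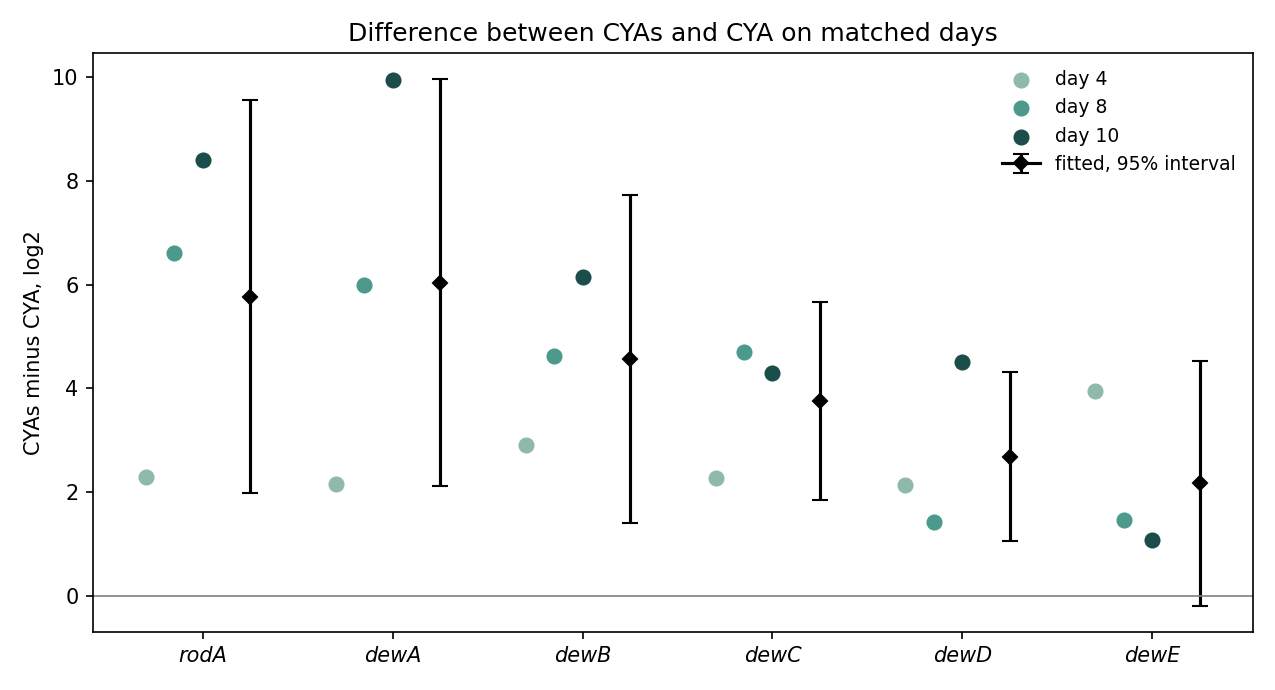
Difference between CYAs and CYA (y axis, log2) for each hydrophobin gene (x axis) on days 4, 8 and 10, each the difference of 2 arrays, with the fitted difference and its 95% interval from limma. All 18 points lie above 0. For rodA, dewA and dewB the day 10 point is the highest, and for dewE the day 4 point is.

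YES was compared with CYA and with CYAs on days 4 and 10. On day 4, within slide 1, all 6 genes were higher on YES than on CYA. The differences were 2.50 for rodA, 2.21 for dewA, 3.03 for dewB, 1.24 for dewC, 2.61 for dewD and 1.11 for dewE. At least a 4-fold difference was seen for 4 of the 6 genes that day, and for 1.84% of tested genes. On day 10, where the YES and CYA arrays lay on different slides, the difference was 2.94 for dewA, 2.84 for dewD, 3.14 for dewE and 0.84 for rodA. It was -0.62 for dewB and -0.45 for dewC. The genes at least 4-fold higher on YES were thus dewA, dewD and dewE on day 10 (6.49% of tested genes) and rodA, dewA, dewB and dewD on day 4. Limma gave 2.41 for dewD (SE 0.75, adjusted p = 0.597) and 1.88 for rodA (SE 1.75, 95% interval -2.56 to 6.32, adjusted p = 0.779). None of the 6 passed, and 0% of tested genes did. Only dewD was higher at an unadjusted p under 0.05, as were 3.24% of tested genes. The fitted difference of rodA was -0.48 without YES day 4 and 4.24 without YES day 10. With slide as a block the differences were 1.35 for rodA, 1.13 for dewA, 1.30 for dewB, 0.81 for dewC, 1.66 for dewD and 1.92 for dewE. Without the block that of dewA was 2.56.

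Against CYAs, YES gave nearly the same levels on day 4 for some genes and far lower levels on day 10. On day 4 the difference was 0.21 for rodA, 0.05 for dewA, 0.12 for dewB and 0.47 for dewD, while it was -1.02 for dewC and -2.84 for dewE, the 1 member at least 4-fold lower on YES (0.909% of tested genes). On day 10 it was -7.56 for rodA (189-fold lower), -7.02 for dewA, -6.77 for dewB, -4.74 for dewC and -1.66 for dewD, and dewE alone was higher on YES, by 2.06. On that day 4 of the 6 genes were at least 4-fold lower on YES, as were 11.2% of tested genes, and dewE was at least 4-fold higher, as were 6.27%. No YES array shared a slide with a CYAs array, so the slide and these media cannot be told apart on matched days. Limma gave -3.12 for dewC (SE 0.89, adjusted p = 0.3) and -3.89 for rodA (SE 1.75, adjusted p = 0.377). Leaving out YES day 10 gave -1.53 for rodA, -1.77 for dewC and -0.70 for dewB, and dewA, at -3.47 in the full fit, was at -0.98 without CYAs day 10. None of the 6 passed, and 0.009% of tested genes did. At an unadjusted p under 0.05 dewC was lower on YES, as were 7.75% of tested genes. With slide as a block the difference of rodA was -5.27 (SE 3.95) and that of dewA -7.19 (SE 3.59). That of dewD was -2.23 (SE 1.32), where the fit without the block gave -0.28. Only the CYA arrays lay on both slides, so these block values rest on CYA to link them.

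Colony age was compared within each medium, where 1 array per medium and day allows no test. On YES, rodA was 241-fold lower on day 10 than on day 4, dewB 132-fold and dewA 127-fold, all within slide 1. On CYA, the day 10 level was 209-fold lower than the day 4 level for dewA and 76.2-fold lower for rodA, and dewB differed by -3.39 on the log2 scale. In the deposited log2 values the fall of dewA on CYA was smaller, from 12.66 on day 4 to 6.41 on day 10. CYA day 10 was on slide 2 and the younger CYA arrays on slide 1. Within slide 1, CYA day 8 differed from CYA day 4 by -5.17 for rodA, -4.39 for dewA and -2.75 for dewB. On CYAs, within slide 2, the difference of day 10 from day 4 was -0.15 for rodA, 0.08 for dewA, -0.14 for dewB and -0.07 for dewD. These 4 genes were thus at least 4-fold lower on day 10 on both YES and CYA while lying within 2-fold of their day 4 level on CYAs, which held for 1.26% of tested genes. For dewD the CYA part rests on weak signals on day 10. In the deposited log2 values dewD went from 8.705 on CYA day 4 to 6.926 on CYA day 10, less than 4-fold. The dewC level on CYAs was 2.49-fold lower on day 10, and it was 32.7-fold lower on YES and 10.2-fold lower on CYA.

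Of the 6 genes, 5 were at least 4-fold lower on YES day 10 than on YES day 4 (6.95% of tested genes), and 5 on CYA day 10 (5.11%), dewE being the exception each time. The same 5 genes were lower in both media, as were 2.66% of tested genes. In the deposited log2 values the fall of dewD on CYA was less than 4-fold, as given above. On CYAs day 10 only dewE was at least 4-fold lower than on day 4 (1.92% of tested genes), with a 13.2-fold difference, and on day 8 dewE was again the 1 member at least 4-fold lower (0.261%). On YES, dewE was 2.27-fold higher on day 10. In the additive limma fit, day 10 against day 4 gave -4.77 for rodA (SE 1.50, adjusted p = 0.166), -4.87 for dewA (SE 1.55, adjusted p = 0.17) and -3.23 for dewC (SE 0.76, adjusted p = 0.132). None of the 6 passed, nor did any tested gene (0%), and 4 of the 6 were lower at an unadjusted p under 0.05, as were 8.79% of tested genes. The median of the 6 differences was -3.38, against 0.13 over all tested genes. An additive fit takes the same effect of age on every medium. In that fit dewE was -1.13 (SE 0.93, adjusted p = 0.493), and 0.05 without CYAs day 4.

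Whether age acted alike on the media was tested in a further limma fit with a straight line over days for each medium, added after these values had been seen. With day as a factor no arrays are left over for such a test, and the straight lines leave 2 residual degrees of freedom. The difference from day 4 to day 10 along the line was higher on CYAs than on CYA by 7.50 for dewA (SE 0.997, adjusted p = 1) and by 6.15 for rodA (SE 1.17, adjusted p = 1). Between YES and CYAs it was -7.60 for rodA (SE 1.18), -6.94 for dewA (SE 1.01) and -6.70 for dewB (SE 1.06), but 4.86 for dewE (SE 0.93, 95% interval 2.35 to 7.36), each with a limma adjusted p of 0.97. None of the 6 passed in any of the 3 contrasts, and 0% of tested genes did. At an unadjusted p under 0.05, rodA, dewA and dewB were higher for CYAs against CYA (3% of tested genes) and dewE lower (0.252%). At that threshold rodA, dewA and dewB were lower for YES against CYAs (4.29%) and dewE higher (0.324%), and dewB alone was lower for YES against CYA (1.5%).

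**Figure D3:**
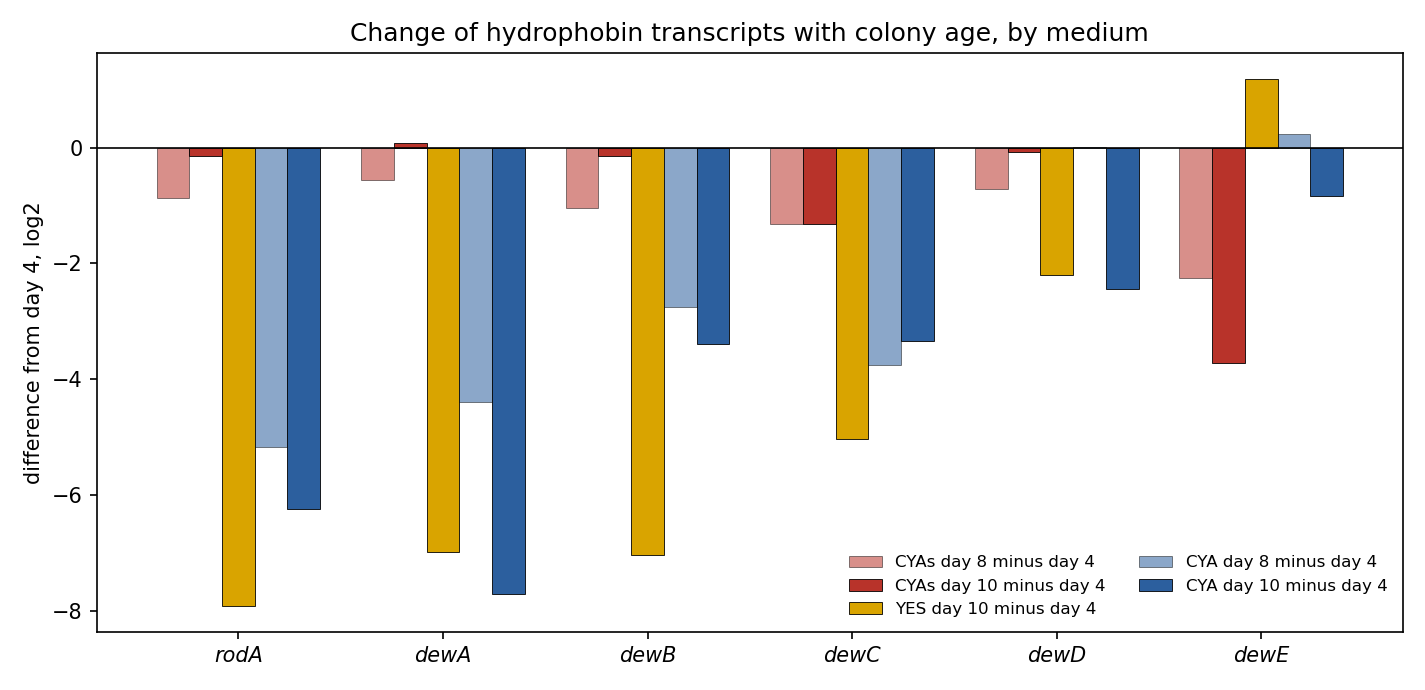
Difference from day 4 (y axis, log2) of each hydrophobin gene (x axis) on days 8 and 10 of CYAs and CYA and on day 10 of YES, each the difference of 2 arrays. The YES and CYA bars of rodA, dewA, dewB and dewC reach from -2.75 to -7.91, while the CYAs bars stay between -1.32 and 0.08. For dewE the CYAs bars are the longest and the YES bar points up.

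The regulators of conidium formation were set beside the hydrophobins. The transcription factor gene brlA, which starts conidiophore development, stood at -2.75, -3.45 and -3.32 on CYAs days 4, 8 and 10, at -1.77 and -3.20 on YES days 4 and 10, and at -2.76, -3.68 and -4.09 on CYA. Its highest array was YES day 4 and its lowest CYA day 10, as for rodA, but its range was 2.32 where that of rodA was 8.76. The next regulator of the series, abaA, lay between -5.34 and -3.37, and wetA, which acts late in spore maturation, between -5.24 and -2.42. For CYAs against CYA, limma gave 0.34 for brlA (SE 0.27, adjusted p = 0.837), 0.77 for abaA (SE 0.39, adjusted p = 0.681) and 0.96 for wetA (SE 0.54, adjusted p = 0.728). Of the 7 regulators (brlA, abaA, wetA, vosA, velB, stuA and medA), 5 were higher on CYAs and 2 lower, with a median of 0.12. None passed in any of the 4 contrasts. The 6 upstream activators, fluG and flbA to flbE, had a median difference of -0.04 and likewise none passed. Of these, 3 were higher on CYAs and 3 lower, from 1.13 for flbD and 0.915 for flbC to -0.39 for fluG. As a description, the Pearson correlation with rodA was 0.802 for flbD, 0.777 for flbC and -0.919 for fluG. For flbA, flbB and flbE it lay between -0.396 and -0.036.

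Genes for products of the conidium and, for ivoA and ivoB, of the conidiophore followed rodA more closely in some cases. The level of wA (AN8209, pksP in the reference), the polyketide synthase gene of the conidium pigment, was 3.42, 2.70 and 2.92 on CYAs days 4, 8 and 10, 2.54 and -0.56 on YES days 4 and 10, and 1.35, -0.56 and -0.26 on CYA. Its high and low arrays were those of rodA, with a Pearson correlation of 0.97 over the 8 arrays, given as a description. The laccase gene yA, which turns the yellow pigment green, was between -2.27 and -1.60 on CYAs, at -1.88 and -3.85 on YES and between -3.65 and -2.69 on CYA. The spore catalase gene catA differed from this, at 3.70 on CYA day 10, its highest array, and -1.86 on YES day 10, its lowest. All 5 product genes (wA, yA, ivoA, ivoB and catA) were higher on CYAs than on CYA in the fit, with a median of 1.45, and none passed. The fitted difference of catA was only 0.07 (SE 0.93). On matched days catA was lower on CYAs on day 8 (-0.035) and day 10 (-1.13), and ivoA was lower on day 8 (-0.64). Limma gave 2.84 for wA (SE 0.53, adjusted p = 0.368).

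Genes of sexual development and of autolysis were examined on the same arrays. The mutanase gene mutA (AN7349), a marker of the Hülle cells that surround fruiting bodies, was at -5.33, 4.54 and 2.61 on CYAs days 4, 8 and 10, at -5.41 and 0.52 on YES, and at -1.25, 6.52 and 6.69 on CYA. It was thus far higher on CYAs days 8 and 10 than on CYAs day 4, where rodA was within 2-fold. The summed signal of this list of 7 genes (mutA, the peroxidase gene cpeA, the regulators nsdD, nosA and steA, and the mating-type genes MAT1 and MAT2), relative to the 75th percentile, ran from 6.97 to 33.6 on CYAs, 6.66 to 7.09 on YES and 12.3 to 114.9 on CYA. Of these sums mutA made up 69.3% on CYAs day 8, 94.1% on CYA day 8 and 89.8% on CYA day 10, and without mutA the sums lay between 5.65 and 12.9 on all 8 arrays. The other genes differed among themselves: nosA was highest on CYAs day 8 (-0.86) and cpeA on CYAs day 10 (2.91), where rodA was high, while MAT1 was highest on YES day 10 (-2.32) and MAT2 on CYA day 8 (-2.83), where rodA was low. For 4 autolysis genes, the chitinase gene chiB, engA and the protease genes prtA and pepJ, the sums ran from 5.13 to 14.6 on CYAs, 27.1 to 60.8 on YES and 3.89 to 58.7 on CYA. On YES days 4 and 10 prtA was at 4.64 and 5.72 and made up most of both sums. In the fit of YES against CYA only prtA was higher, by 4.52, and chiB (-1.68), engA (-0.73) and pepJ (-0.70) were lower. The highest CYAs sum of both lists was that of day 8, the array checked above against CYA day 8. Without it the highest were 19.1 for the genes of sexual development and 5.39 for those of autolysis. All 4 were lower on CYAs than on CYA in the fit (median -1.34) and all 4 higher on day 10 than on day 4 (median 1.58), and none passed either test. Of the 7 genes of sexual development, 4 were lower on CYAs than on CYA and 3 higher, and none passed. All genes of both lists were well above background on all arrays, as were 10791 of the 11127 genes on the array. The metalloprotease gene pepJ (AN7962, mep20 in the reference) stood at -3.04, -1.67 and -1.50 on CYAs days 4, 8 and 10, -2.92 and 1.55 on YES days 4 and 10, and -1.27, 1.03 and 1.14 on CYA days 4, 8 and 10. Its 3 highest arrays were the 3 lowest of rodA, with a Pearson correlation of -0.963 over the 8 arrays, given as a description. This was the most negative value of the 4 autolysis genes. The correlation with rodA was -0.846 for chiB, -0.674 for engA and -0.332 for prtA. The part of either list in the hydrophobin differences was not tested.

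**Figure D4:**
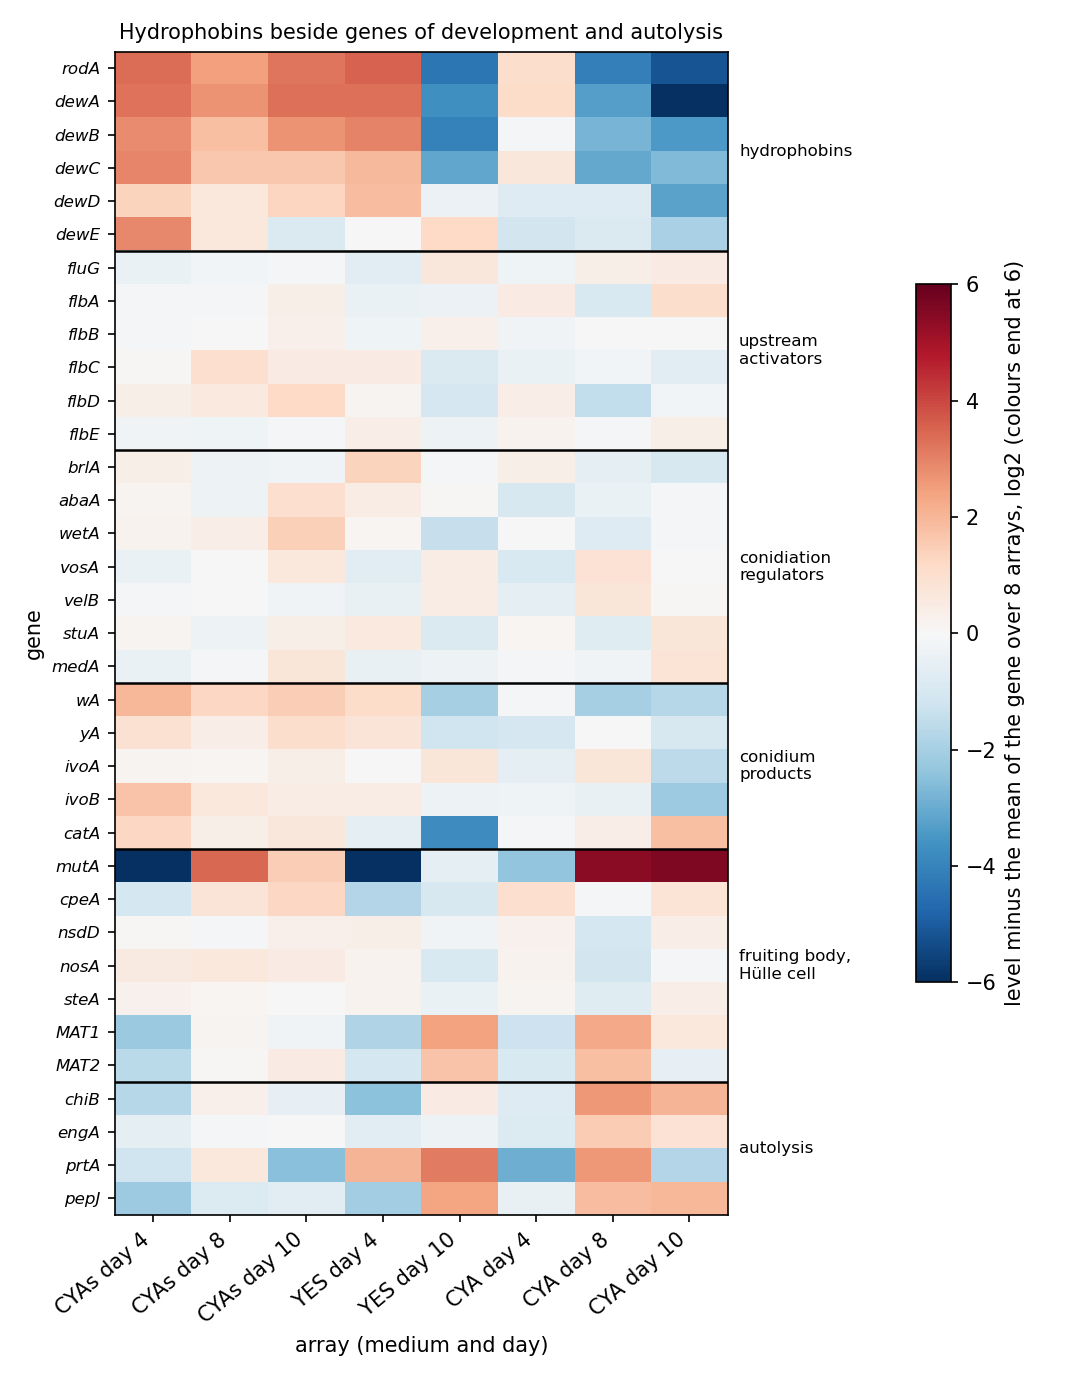
Level of each gene minus its mean over the 8 arrays (colour, log2) for the hydrophobins and the genes of conidiation, fruiting bodies and autolysis (rows), by array (columns). The rows of rodA, dewA, dewB and dewC are red on CYAs and YES day 4 and blue on YES day 10 and CYA days 8 and 10. The row of wA has the same colours, the rows of brlA, abaA and wetA are pale, and mutA is darkest red on CYA days 8 and 10.

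The genes most like each hydrophobin gene over the 8 arrays were sought among 8444 tested genes with a range of at least 1 on the log2 scale. For rodA they were AN8375 (Pearson r = 0.991), AN11871 (0.991) and AN3032 (0.989), named cspA in the reference, and 2.14% of the candidates had r over 0.9. For dewB they were AN8908 (0.995), cspA (0.991) and AN10109 (0.989), named ccpA in the reference, with 1.84% over 0.9. For dewA the nearest were AN10041 (0.976), AN10689 (0.974) and AN2801 (0.973), and for dewC AN7795 (0.994), AN5170 (0.991) and AN5353 (0.99). For dewD the nearest was AN4852 (0.988), followed by AN8383 (0.961) and AN12048 (0.96), and 0.296% of candidates had r over 0.9. For dewE the nearest was AN5902 (0.924), named alg10, followed by AN9365 (0.917) and AN3104 (0.907). Only 4 candidates (0.0474%) had r over 0.9 with dewE, the fewest of the 6 genes.

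The 11 measured chromosomal neighbours varied less over the arrays than the hydrophobin gene beside them. So did most tested genes, from 93.4% against dewE to 99.8% against dewA. The neighbours of rodA, AN8804 and AN8802, spanned 0.80 and 1.77 on the log2 scale, and those of dewE, AN7538 and AN7540, spanned 0.87 and 0.98. The gene after dewA, AN8007, had the highest correlation of the 11 measured neighbours with its hydrophobin gene (r = 0.851) and a range of 5.29. The gene before dewB, AN10238, had a range of 5.51 with r = -0.728. The correlations of the other neighbours lay between -0.806 and 0.684.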

How the data were processed

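Spot intensity values were made by the authors with Agilent Feature Extraction 10.5.1.1 from 1-colour Cy3 arrays, per the file headers. The background correction within that software is not stated in the labels. A deposited table of log2 values per gene served as an alternative. For it the submitters' processing notes list limma and RMA, without saying what each did.

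From the processed signals, log2 levels were computed relative to the 75th percentile of each array, without control spots and outlier spots, and averaged over the probes of a gene. Genes with a probe well above background on 2 or more arrays were tested. Differences were tested with limma 3.58.1 in R 4.3.3 (medium and day additive, 8 arrays, 3 residual and 2.25 prior degrees of freedom), with p-values adjusted by Benjamini-Hochberg over 11109 genes. The fit was tested on simulated data. Alternatives were another background correction and normalization, median centring, the filter on dim probes, the median of probes, slide as a block, a single factor and leaving out each array. Intervals are unadjusted. A fit of medium by day with day as a number was added after seeing the data. Slides were read from the headers.

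The members and lists were chosen with earlier results of these data known. Named genes were the 6 members, listed regulators and products, the 3 genes of highest Pearson correlation with each member and its chromosomal neighbours. The labels name no replicate cultures, and arrays were not paired. Reference coordinates served only to find neighbours. No sequences are printed. The autolysis list is given without 1 gene, which is not reported here, and its counts cover the other 4.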

Additional observations from a re-analysis of the deposited data

Results flagged for a closer look

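The dewE transcript was marked for a closer look because its later arrays lay on opposite sides of day 4 on different media. On CYAs its level differed from day 4 by -2.25 on day 8 and by -3.73 on day 10, while on YES it differed by 1.18 on day 10. All 3 probes gave these directions, and each value is the difference of 2 arrays. In a limma fit with a straight line over days for each medium, added after these values were seen, the difference between YES and CYAs was 4.86 (SE 0.93, adjusted p = 0.97).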

How the results depend on the processing

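No hydrophobin gene passed an adjusted p under 0.05 in any of the 4 contrasts under any alternative run. The number of genes called between YES and CYAs was 1 (AN11979, no hydrophobin gene, named after its value was seen), and 0 with normexp and quantile normalization, with the authors' value table, with slide as a fixed or random block and with medium or day alone in the model. It ran from 0 to 160 when arrays were left out, with 160 without YES day 4. Of 412 fitted values of single members under alternatives, 8 changed direction, all on leaving out an array. For YES against CYA, leaving out arrays gave -0.48 to 4.24 for rodA, -1.42 to 3.86 for dewB and -0.72 to 1.99 for dewC, lowest without YES day 4 and highest without YES day 10. For YES against CYAs, dewD ran from -0.75 to 0.79 (above 0 without CYAs day 10, and at 0.20 without YES day 10), and dewE from -1.95 to 1.52 (at 1.26 without CYAs day 4 and highest without YES day 4). For day 10 against day 4, dewE ran from -2.28 to 0.05, highest without CYAs day 4. The value for dewA on CYAs day 10 against day 4 was -0.014 with median centring. The cause was not tested. Of the 30 age differences, 16 were at least 4-fold lower, and 14 to 16 under the alternatives. Among the age differences recomputed under the alternatives, 49 were marked as moved from the main value, 1 as reversed and 75 as the same. Without its dim probe, an alternative chosen after seeing the data, dewC differed by 5.09 between CYAs and CYA and by -7.02 between YES days 10 and 4. No paired analysis was possible because the labels give no replicate numbers to pair by, while matched days enter the fit as a factor. The median of all genes was 0.13 for day 10 against day 4 and, with median centring, -0.11 for YES against CYA and -0.14 for YES against CYAs. The dim probe of dewC limits its values.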
